A study of Mus musculus with 12 samples.

Results

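The marker genes of neutrophils and macrophages described here are Ngp, S100a8, S100a9, Itgb2, Cd14, Lyz1, Cd68, Csf1r and Ptprc, measured in whole mouse pancreas. They were found by symbol: every probe set to which the platform annotation gives 1 gene symbol, and that symbol 1 of these 9, was taken, whatever its signal. This gave 13 probe sets of 9 genes, out of 22516 probe sets and 12335 singly annotated genes on the array. The study compared 4 groups of 3 pancreata, with 1 Affymetrix array per pancreas: Mist1KO mice injected with caerulein, Mist1KO mice injected with saline, wild type mice injected with caerulein and wild type mice injected with saline. All were males of 2 to 4 months, given hourly injections over 4 hours and killed at the end of them. The wild type mice are called C57BL6 in the labels, which name no strain, allele or promoter for the Mist1KO mice and no dose of caerulein. Mist1 is the protein of Bhlha15, a transcription factor of secretory cells such as the enzyme-producing acinar cells, and caerulein is a peptide relative of the gut hormone cholecystokinin that overdrives these cells.

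Neutrophils and monocytes leave the blood early in pancreatitis, and their messenger RNAs then add to those of the tissue. Neutrophils carry the calcium-binding pair S100a8 and S100a9 in their cytosol and granule proteins such as Ngp, which are transcribed mainly while the cells mature in bone marrow. Macrophages depend on the growth factor receptor Csf1r, carry Cd68 in their lysosomes and secrete lysozyme, which mice encode in the near-identical genes Lyz1 and Lyz2. Cd14 hands bacterial lipopolysaccharide to Toll-like receptor 4 and can also be made by epithelial cells. Itgb2, the beta chain of the leukocyte integrins, and Ptprc, the phosphatase CD45, mark leukocytes of nearly every kind. In whole tissue, fewer cells of a type and less RNA per cell cannot be told apart, and a signal cannot be assigned to a cell type.

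The upstream sequences of Ngp, S100a8, S100a9 and Lyz1 are shown because these are the secreted or granule-cell products whose signals are set side by side most often here. Each is the 250 bases before the gene's start, from RefSeq on GRCm38.p6, and such a stretch was taken for 6 of the 9 genes (also for Cd68 and Ptprc). Cd14 and Csf1r were left out by their chromosome, and no stretch was found for Itgb2. Capitals mark matches on either strand to 3 motifs: GAGGAA, the core bound by PU.1, TTNNGNAA, a site of the C/EBP factors, and TATAAA, the TATA box. The Ngp stretch lies at chr9:110419558-110419807 on the plus strand, S100a8 at chr3:90668821-90669070 on the plus strand, S100a9 at chr3:90695722-90695971 on the minus strand and Lyz1 at chr10:117292869-117293118 on the minus strand.
Ngp: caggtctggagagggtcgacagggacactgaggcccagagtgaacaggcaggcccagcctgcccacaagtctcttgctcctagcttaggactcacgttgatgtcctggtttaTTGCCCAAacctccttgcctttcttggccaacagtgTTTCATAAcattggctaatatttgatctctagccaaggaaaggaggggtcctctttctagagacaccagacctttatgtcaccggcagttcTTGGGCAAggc
S100a8: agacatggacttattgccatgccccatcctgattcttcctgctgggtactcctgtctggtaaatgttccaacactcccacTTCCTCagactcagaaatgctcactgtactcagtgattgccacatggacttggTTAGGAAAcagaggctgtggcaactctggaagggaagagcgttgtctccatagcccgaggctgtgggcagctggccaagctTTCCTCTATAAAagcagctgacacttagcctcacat
S100a9: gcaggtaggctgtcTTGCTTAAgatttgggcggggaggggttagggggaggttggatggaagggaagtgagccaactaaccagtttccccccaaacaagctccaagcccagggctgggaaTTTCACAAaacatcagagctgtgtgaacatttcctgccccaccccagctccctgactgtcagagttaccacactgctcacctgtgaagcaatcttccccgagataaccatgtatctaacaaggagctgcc
Lyz1: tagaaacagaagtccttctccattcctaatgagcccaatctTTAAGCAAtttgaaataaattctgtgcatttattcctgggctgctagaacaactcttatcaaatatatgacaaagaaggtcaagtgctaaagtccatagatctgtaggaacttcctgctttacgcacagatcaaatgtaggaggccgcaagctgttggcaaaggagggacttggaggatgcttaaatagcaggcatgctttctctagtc
Among the stretches shown, only S100a8 held matches to all 3 motifs. They were the PU.1 core at 170 and 36 bases before the start, a C/EBP match at 117 and a TATA match at 30. The others shown held only C/EBP matches, 3 in Ngp (138, 102 and 11 bases before the start), 2 in S100a9 (236 and 130) and 1 in Lyz1 (209). Of the genes not shown, Ptprc had stretches for more than 1 start. In 1 of them all 3 motifs matched, the PU.1 core at 158, C/EBP at 218 and 116 and TATA at 187, and another held no match. Cd68 held the PU.1 core at 225 and C/EBP matches at 165, 69 and 43. No match overlapped another. Of all 32817 stretches of this length, 23.3% held the PU.1 core, 36.8% the C/EBP letters and 12.4% the TATA letters, and a match of letters is not a bound site.

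The values are signal intensities on a linear scale that the deposited arrays share. For tests, 18.7 was added to each signal before taking log2, and a change is a difference of group means on that scale ± its standard error, with 3 arrays per group. A gene is said to have risen or fallen where limma's two-sided test gave a p-value under 0.05 after Benjamini-Hochberg adjustment over all 15716 probe sets bright enough to test. A gene with several probe sets is counted by its brightest. Of the 9 genes 8 were bright enough, with 12 of the 13 probe sets. S100a9 was not, so its values are given without a test. The median change over all probe sets was -0.13 with caerulein in Mist1KO, -0.14 with caerulein in wild type and -0.05 for Mist1KO against wild type after either injection. Over all 9481 genes tested, 10.2% rose and 14.0% fell with caerulein in Mist1KO, and 8.74% rose and 9.96% fell in wild type. For Mist1KO against wild type, 6.14% rose and 6.95% fell after saline, and 9.03% rose and 11.6% fell after caerulein. The counts of calls in the gene lists below are to be read beside these shares.

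The labels were borne out by Bhlha15 itself, which read 38.3 to 106.8 on the 6 Mist1KO arrays and 729.5 to 1624.3 on the 6 wild type arrays. The hybridisation controls added to every array, 18 probe sets taken as a geometric mean, differed between the groups: 446 ± 58.0 in Mist1KO caerulein, 914 ± 138 in Mist1KO saline, 1074 ± 325 in wild type caerulein and 1263 ± 61.8 in wild type saline (SD, n = 3 arrays each). Their part in the results was not tested. Among the marker genes, 3 arrays stood apart from their groups. Mist1KO saline replicate 2 was the highest of its group in 8 of 9 genes, Mist1KO caerulein replicate 3 in 7 of 9, and wild type saline replicate 2 was the lowest of its group in 7 of 9.

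**Figure D1:**
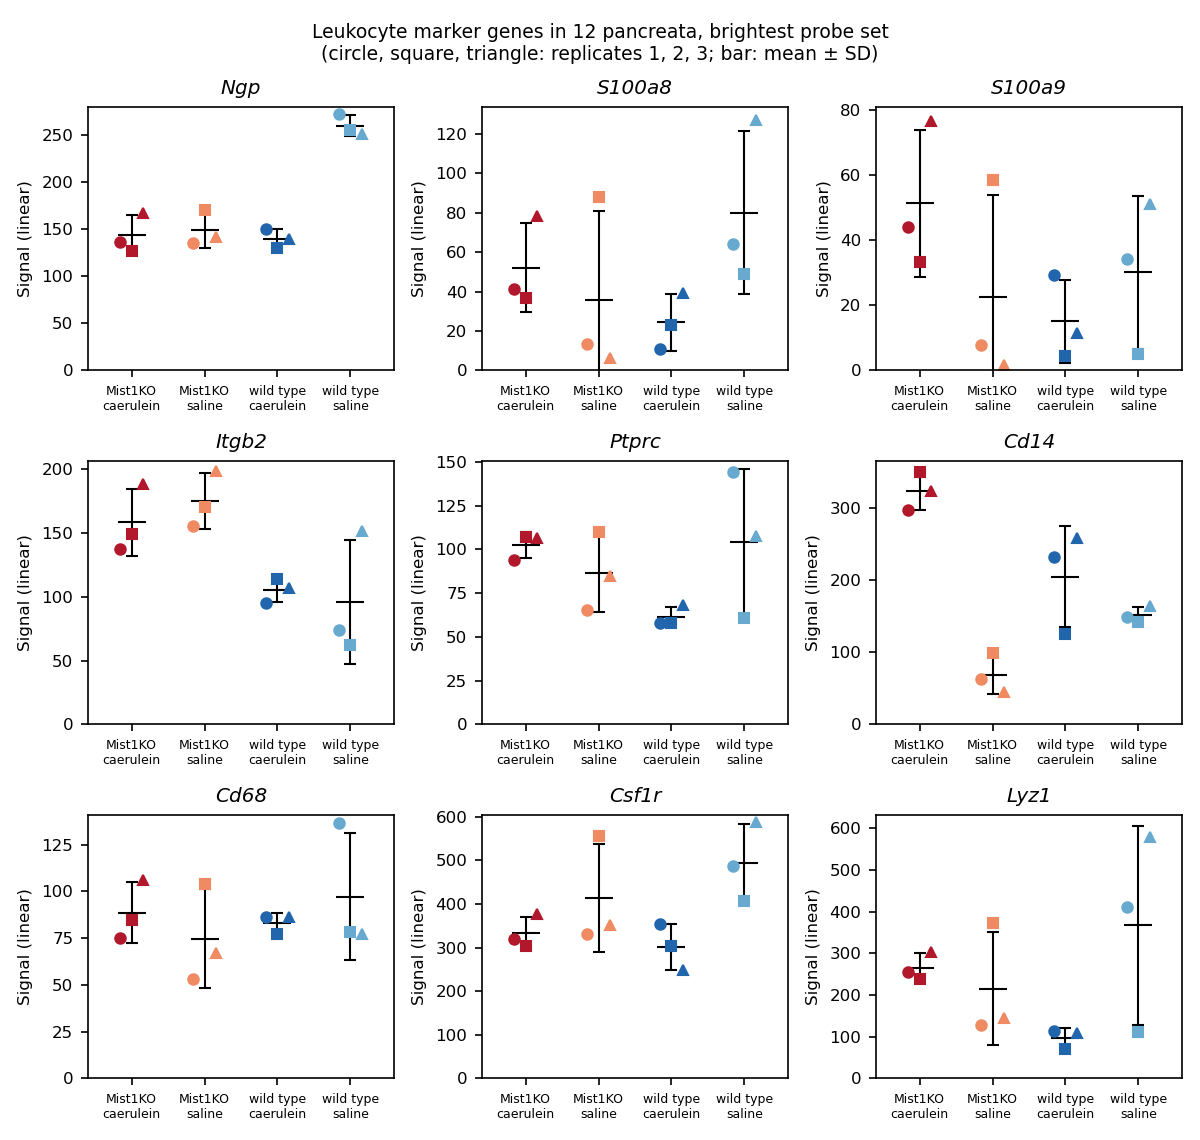
Signal intensity (linear scale, each vertical axis from 0) of the 9 marker genes, each by its brightest probe set, on each of the 12 arrays. Points are arrays, and bars with whiskers are the group mean ± SD (n = 3), with whiskers below 0 not drawn. Cd14 lies between 296.2 and 349 on the Mist1KO caerulein arrays, above all other arrays, and Ngp lies between 251.4 and 272.1 on the wild type saline arrays, above all other arrays.

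Cd14, the co-receptor for lipopolysaccharide, was the only one of the 8 tested genes that rose with caerulein, and it did so in Mist1KO, where 10.2% of all genes tested rose. Its signal was 296.2, 349 and 323.1 in Mist1KO caerulein, against 62.6, 99 and 45.3 in Mist1KO saline. In wild type it was 231.3, 124.9 and 257.3 after caerulein, against 148.3, 141.2 and 163.2 after saline. Every Mist1KO caerulein array thus lay above every other array, every Mist1KO saline array lay below every other array, and the wild type groups overlapped between them. With caerulein Cd14 rose 4.01-fold in Mist1KO (2.00 ± 0.25, adjusted p = 5.4e-05), and this call held in all 24 other settings that were tried. In wild type the change was 0.34 ± 0.25 (adjusted p = 0.362), with a 95% interval from -0.19 to 0.88.

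The change of Cd14 with caerulein was larger in Mist1KO than in wild type by 1.66 ± 0.35 (interaction, adjusted p = 0.0206). Mist1KO also started lower: after saline, Cd14 was 1.99-fold lower in Mist1KO than in wild type (SE 0.25 on the log2 scale, adjusted p = 0.0196). After caerulein Mist1KO was higher by 0.67 ± 0.25, with no overlap of arrays, but did not pass the threshold (adjusted p = 0.0757). The order of the group means was therefore 322.8 in Mist1KO caerulein, 204.5 in wild type caerulein, 150.9 in wild type saline and 69.0 in Mist1KO saline, and only the step from Mist1KO saline to wild type saline passed the test between neighbours. The call after saline ended without wild type saline replicate 3, Mist1KO saline replicate 1 or Mist1KO saline replicate 3 (adjusted p at most 0.0855), and the interaction ended without Mist1KO saline replicate 1, Mist1KO saline replicate 3 or Mist1KO caerulein replicate 2 (at most 0.0559).

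Among 11 other genes of CD14 and Toll-like receptor 4 signalling, 3 rose and none fell with caerulein in Mist1KO, with a median change of 0.06 against -0.14 over all 9481 genes tested. Ly96, the MD-2 protein that binds lipopolysaccharide together with the receptor, read 126.6, 153.1 and 120 in Mist1KO caerulein, against 34.9, 35.1 and 79.5 in Mist1KO saline. It rose by 1.20 ± 0.26 (adjusted p = 0.00367). Tirap, an adaptor of the receptor, rose by 1.30 ± 0.35 (adjusted p = 0.0150), from a mean of 85.7 to one of 215.8. That call ended without Mist1KO saline replicate 3 or Mist1KO caerulein replicate 2 (at most 0.0615 in any setting). The Tirap mean was also higher after caerulein in wild type, 212.6 against 115.2, but the arrays overlapped and the change did not pass the threshold. Its level after caerulein was thus similar in both genotypes. The third gene to rise in Mist1KO was Myd88, the adaptor shared by most Toll-like receptors, at 0.50 ± 0.17 (adjusted p = 0.0478). Its call was lost in 16 of 24 other settings (at most 0.205). Of the same list, 1 gene rose and none fell with caerulein in wild type, the inhibitor Tollip (0.36 ± 0.12, adjusted p = 0.0470), a call lost in 14 of 24 other settings (at most 0.149). Tlr4 itself, looked up after its values were seen, changed by 0.34 in Mist1KO (adjusted p = 0.400) and by -0.62 in wild type (adjusted p = 0.126). In Mist1KO caerulein against wild type caerulein, Irak1, a kinase of the pathway, fell by 0.96 (SE 0.14, adjusted p = 0.000421) and Tollip fell by 0.90 (SE 0.12, adjusted p = 0.000168), and 2 of 11 fell in all.

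The neutrophil granule gene Ngp fell with caerulein in wild type, where 9.96% of all genes fell. It read 136.7, 126.7 and 167.1 in Mist1KO caerulein and 134.9, 170.3 and 141.2 in Mist1KO saline. In wild type it read 150.4, 129.8 and 139.1 after caerulein, against 272.1, 255 and 251.4 after saline. The 3 wild type saline arrays stood above the other 9, which overlapped one another. With caerulein Ngp fell by 0.81 in wild type (SE 0.15, adjusted p = 0.00164), a 1.76-fold change, while in Mist1KO the change was -0.05 ± 0.15 (adjusted p = 0.853, 95% interval -0.37 to 0.27). After saline it fell by 0.74 in Mist1KO relative to wild type (SE 0.15, adjusted p = 0.00662). After caerulein the genotypes differed by 0.03 ± 0.15 (adjusted p = 0.919). The difference between the caerulein changes of the genotypes, 0.76 ± 0.21, did not pass the threshold (adjusted p = 0.0682).

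S100a8 and S100a9, which neutrophils keep as a protein pair, varied widely between arrays of 1 group. The only probe set of S100a8 has the suffix _s_at, given where probes match transcripts of more than 1 gene, so its values are uncertain to that extent. S100a8 read 41.4, 36.8 and 78.4 in Mist1KO caerulein, against 13.5, 87.9 and 6.3 in Mist1KO saline. In wild type it read 10.6, 23 and 39.5 after caerulein, against 64.2, 48.9 and 126.9 after saline. Wild type caerulein lay below wild type saline on every array, whereas the Mist1KO groups overlapped, with Mist1KO saline replicate 2 the highest of the 6. The change was 0.64 ± 0.49 in Mist1KO (adjusted p = 0.394) and -1.17 ± 0.49 in wild type (adjusted p = 0.118), and their difference was 1.81 ± 0.70 (adjusted p = 0.202). S100a9 read 44.1, 33.2 and 76.6 in Mist1KO caerulein, against 7.9, 58.5 and 1.5 in Mist1KO saline. It read 29.2, 4.5 and 11.5 in wild type caerulein, against 34.1, 4.9 and 51.2 in wild type saline. Its differences of log2 means were 0.97 in Mist1KO and -0.46 in wild type with caerulein, and 1.07 for Mist1KO caerulein against wild type caerulein, the only pair of groups whose arrays did not overlap.

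The result for S100a8 depended on single arrays. Without replicate 2 of both saline groups, a setting chosen after its values were seen, S100a8 rose by 1.28 with caerulein in Mist1KO (adjusted p = 0.0457), fell by 1.41 in wild type (adjusted p = 0.0358) and had an interaction of 2.68 (adjusted p = 0.0365). In the same setting S100a8 fell by 1.95 in Mist1KO saline relative to wild type saline (adjusted p = 0.0277). Without Mist1KO caerulein replicate 3 as well, the rise in Mist1KO and the interaction were no longer called. The arrays left out stood apart in the marker genes themselves, so the p-values of these settings support no call.

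Of 13 further neutrophil genes bright enough to test, of 30 listed, 1 rose and none fell with caerulein in Mist1KO, and 1 rose and 1 fell in wild type. The list medians were 0.05 and -0.25, against -0.14 and -0.16 over all genes. The gene that rose in both was Lcn2, neutrophil gelatinase-associated lipocalin, which injured epithelium also makes. It read 412.6, 516.9 and 744.8 in Mist1KO caerulein, against 97.2, 82.5 and 51.5 in Mist1KO saline. It read 181.9, 202.3 and 201.4 in wild type caerulein, against 85.7, 23.5 and 127.1 in wild type saline. Lcn2 rose by 2.58 ± 0.36 in Mist1KO (adjusted p = 0.000143) and by 1.31 ± 0.36 in wild type (adjusted p = 0.0210), the second call being lost without wild type saline replicate 2, wild type caerulein replicate 2 or wild type caerulein replicate 3 (at most 0.0680). The gene that fell in wild type was Cybb, the catalytic subunit of the phagocyte oxidase (-1.01 ± 0.27, adjusted p = 0.0166). The Cybb call was lost on leaving out replicate 1 or 3 of wild type saline, or 2 or 3 of wild type caerulein (at most 0.0689). Between the genotypes after caerulein, 1 gene of the list rose in Mist1KO and 1 fell. Lcn2 was higher by 1.39 ± 0.36 (adjusted p = 0.0148), not past the threshold without Mist1KO caerulein replicate 3 (0.0606), and Elane, neutrophil elastase, fell by 0.73 (SE 0.24, adjusted p = 0.0433), a call lost in 15 of 24 other settings, among them leaving out any array of either caerulein group (at most 0.123). After saline 1 gene of the list fell in Mist1KO relative to wild type, Il1r2, a decoy receptor for interleukin-1 (-1.80 ± 0.44, adjusted p = 0.0187), a call lost without replicate 1 or 2 of either saline group (at most 0.137).

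Of 10 other genes named for S100, 2 rose with caerulein in Mist1KO, S100a10, a partner of annexin 2 (0.97 ± 0.26, adjusted p = 0.0135), and S100a16 (0.92 ± 0.15, adjusted p = 0.000456). None rose in wild type, and 1 fell, S100pbp, which encodes a protein that binds another S100 protein (-1.11 ± 0.31, adjusted p = 0.0227). The call of S100a10 ended without Mist1KO saline replicate 1 (adjusted p at most 0.0644), and that of S100pbp without replicate 2 or 3 of either wild type group (at most 0.126). The mean of S100a16 was 530 in Mist1KO saline, against 1004 in Mist1KO caerulein, 1066 in wild type caerulein and 997 in wild type saline. Its rise thus began from a low level after saline and did not exceed the wild type level.

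Csf1r, the receptor that macrophages need to survive, had 3 probe sets, whose levels cannot be set against one another. The brightest read 318.6, 302.9 and 375.8 in Mist1KO caerulein and 331, 555.4 and 351.7 in Mist1KO saline. In wild type it read 353.1, 303.6 and 247.5 after caerulein, against 486.9, 407.1 and 586.9 after saline. The wild type groups did not overlap, and the Mist1KO groups did. With caerulein it fell by 0.68 in wild type (SE 0.20, adjusted p = 0.0280), and the change in Mist1KO was -0.27 ± 0.20 (adjusted p = 0.374). The probe set with the suffix _s_at, whose probes match transcripts of more than 1 gene, read 161.8, 123.5 and 176.8 in Mist1KO caerulein, 118.6, 197.3 and 115.3 in Mist1KO saline, 38.1, 116.2 and 71.7 in wild type caerulein and 176.3, 147.7 and 185.2 in wild type saline. It too fell with caerulein in wild type, by 1.09 (SE 0.28, adjusted p = 0.0150), and it was higher in Mist1KO caerulein than in wild type caerulein by 0.95 ± 0.28 (adjusted p = 0.0280).

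The third Csf1r probe set, with the suffix _a_at for alternative transcripts of 1 gene, ran from 161.1 to 198.6 in Mist1KO caerulein, from 165.6 to 205.6 in Mist1KO saline, from 220.3 to 234.4 in wild type caerulein and from 260.8 to 321.3 in wild type saline. Its wild type change with caerulein, -0.33 ± 0.14, had the same sign but missed the threshold (adjusted p = 0.116). It also fell in Mist1KO saline relative to wild type saline, by 0.58 (SE 0.14, adjusted p = 0.0158), and was lower, not higher, in Mist1KO caerulein than in wild type caerulein (-0.32 ± 0.14, adjusted p = 0.125). The probe sets therefore disagreed in sign after caerulein. The call of the brightest was lost on leaving out replicate 1 or 3 of wild type saline, or 2 or 3 of wild type caerulein (adjusted p at most 0.115). The wild type call of the _s_at probe set ended without wild type caerulein replicate 1 (0.0532), and its call between genotypes without replicate 1 or 3 of either caerulein group (at most 0.106). The call of the _a_at probe set ended without Mist1KO saline replicate 3 (at most 0.0833).

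Lyz1, the lysozyme better known from the gut than from macrophages, spread widely within both saline groups. Its brightest probe set, with the suffix _x_at, read 255.8, 237.8 and 303.5 in Mist1KO caerulein and 128.4, 372.2 and 144.8 in Mist1KO saline. It read 113.6, 69.3 and 108.6 in wild type caerulein, against 410.8, 110 and 580.4 in wild type saline. Of the wild type saline arrays, replicate 2 lay within the wild type caerulein range. Lyz1 fell with caerulein in wild type by 1.49 (SE 0.47, adjusted p = 0.0379), but the call was lost in 12 of 25 other settings, among them leaving out wild type saline replicate 1 or 3, any wild type caerulein array, or Mist1KO caerulein replicate 1 (adjusted p at most 0.147). Over all 25 settings, those that kept the call included, the change ran from -2.15, which leaving out wild type saline replicate 2 gave, to -0.85. In Mist1KO the change was 0.42 ± 0.47 (adjusted p = 0.564). After caerulein the Mist1KO arrays all lay above the wild type arrays, by 1.31 ± 0.47 (adjusted p = 0.0630). The interaction of Lyz1 was 1.92 ± 0.66 (adjusted p = 0.145). Without replicate 2 of both saline groups, a setting chosen after the values were seen, it was 3.02 (adjusted p = 0.00157). The difference between the caerulein groups was then 1.31 (adjusted p = 0.000888). The arrays left out stood apart in the marker genes themselves, so the p-values of this setting support no call.

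The 2 dimmer probe sets of Lyz1 gave no call. They changed with caerulein by 0.30 (the dimmer _x_at probe set) and 0.14 (the plain _at probe set) in Mist1KO, and in wild type by -0.69 for the dimmer _x_at and -0.36 for the plain _at. In Mist1KO caerulein against wild type caerulein they disagreed in sign. The dimmer _x_at stood at 0.63, and the plain _at stood at -0.13 with overlapping arrays. Probe sets with the suffix _x_at hold probes that also match other transcripts, so the signals of Lyz1 and Lyz2 may be mixed in them and the values of Lyz1 are uncertain. The separate probe set of Lyz2, the lysozyme of macrophages, read 348.2, 293.9 and 301.4 in Mist1KO caerulein, 252.9, 360 and 280.4 in Mist1KO saline, 366.3, 217.8 and 270.4 in wild type caerulein and 396.3, 278.4 and 428.1 in wild type saline. Lyz2 changed by 0.09 in Mist1KO (adjusted p = 0.805) and by -0.36 in wild type (adjusted p = 0.238), and its groups overlapped throughout.

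Cd68, the lysosomal glycoprotein by which macrophages are stained, gave no call in any comparison. It read 74.8, 84.8 and 106.3 in Mist1KO caerulein, 52.9, 104.1 and 67 in Mist1KO saline, 86.1, 77.2 and 86.4 in wild type caerulein and 136.4, 78.1 and 77 in wild type saline. All pairs of groups overlapped. Its changes ran from -0.31 ± 0.25 (Mist1KO saline against wild type saline, adjusted p = 0.438) to 0.23 ± 0.25 (caerulein in Mist1KO, adjusted p = 0.558). The 95% interval with caerulein was -0.30 to 0.76 in Mist1KO and -0.68 to 0.38 in wild type, and changes within these limits could not be resolved with 3 arrays a group.

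With caerulein 10.2% of all genes rose and 14.0% fell in Mist1KO, and 8.74% rose and 9.96% fell in wild type. Of 26 further monocyte and macrophage genes, 1 rose and none fell with caerulein in Mist1KO, and 1 rose and 4 fell in wild type. The list medians were -0.12 and -0.33, against -0.14 and -0.16 over all genes. Those that fell in wild type included Adgre1, the F4/80 antigen of mature macrophages, which read 146.6, 109.3 and 144.7 after caerulein, against 312.6, 218 and 240.7 after saline. Its fall was 0.85 (SE 0.21, adjusted p = 0.0122). Fcer1g, the signalling chain shared by activating Fc receptors, fell by 1.22 (SE 0.32, adjusted p = 0.0157) and Itgax, the integrin CD11c, by 0.67 (SE 0.20, adjusted p = 0.0320). Without 1 array these calls were lost: Adgre1 without replicate 1 of wild type saline or 2 of wild type caerulein, Fcer1g without replicate 3 of wild type saline or 2 of wild type caerulein, and Itgax without replicate 1 or 2 of wild type saline or replicate 2 or 3 of wild type caerulein. Their adjusted p was then at most 0.0543 for Adgre1, 0.0702 for Fcer1g and 0.104 for Itgax. In Mist1KO none of the 3 passed, with changes of -0.06 for Adgre1, 0.50 for Fcer1g and -0.37 for Itgax. There Adgre1 read 155.1, 196.7 and 139.6 after caerulein, against 178.8, 221.8 and 122.4 after saline.

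The gene of that list that rose with caerulein was Lgals3, galectin-3, which macrophages and epithelial cells both make. It read 963.4, 922.7 and 312.9 in Mist1KO caerulein, against 24.8, 69.9 and 57 in Mist1KO saline. It read 151, 161.3 and 381 in wild type caerulein, against 66.6, 49 and 90.4 in wild type saline. Lgals3 rose by 3.35 ± 0.42 in Mist1KO (adjusted p = 6.29e-05) and by 1.43 ± 0.42 in wild type (adjusted p = 0.0300), although the wild type call needed replicates 1 and 2 of wild type saline and replicate 3 of wild type caerulein (at most 0.136 without one of them). Between the genotypes after caerulein, 1 gene of the list rose in Mist1KO, Lgals3 (1.55 ± 0.42, adjusted p = 0.0192), and 1 fell, Spi1, which encodes PU.1 (-0.60 ± 0.18, adjusted p = 0.0276). After saline 1 fell, the inhibitory Fc receptor gene Fcgr2b (-0.61 ± 0.14, adjusted p = 0.0128). The call of Lgals3 ended without replicate 1 or 2 of either caerulein group (at most 0.0877), that of Spi1 without wild type caerulein replicate 2 or 3 or any Mist1KO caerulein array (at most 0.0844) and that of Fcgr2b without Mist1KO saline replicate 3 (at most 0.0818). Of 9 partners of Csf1r, 1 rose and 1 fell with caerulein in Mist1KO. Grb2, an adaptor of receptor kinases, rose by 1.13 ± 0.17 (adjusted p = 0.000325), and Pik3r1, a regulatory subunit of phosphoinositide 3-kinase, fell by 1.26 (SE 0.20, adjusted p = 0.000366). Pik3r1 also fell in wild type, by 0.74 (SE 0.20, adjusted p = 0.0184), but not without replicate 1 of wild type saline or 3 of wild type caerulein (at most 0.0735). Both genes are active in cells of many kinds.

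**Figure D2:**
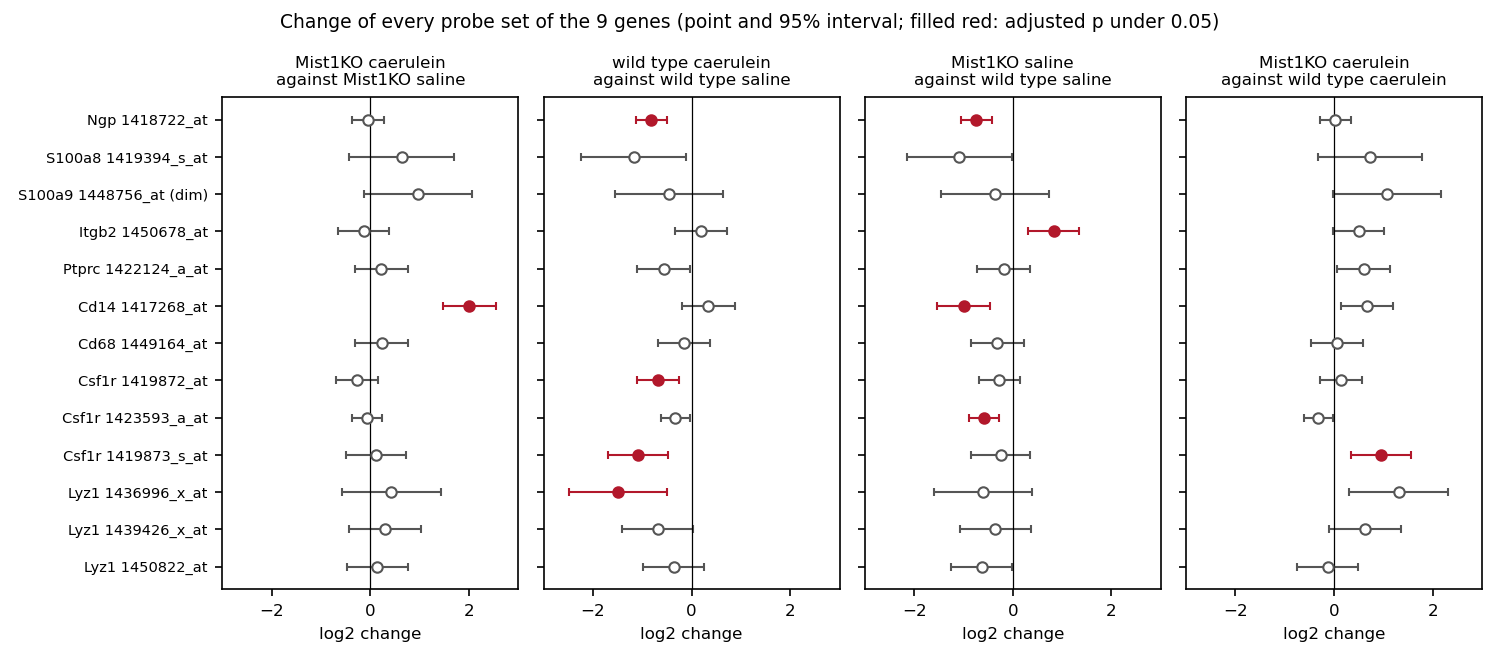
Change on the log2(signal + 18.7) scale, with 95% intervals from the limma fit, of each of the 13 probe sets of the marker genes in the 4 comparisons of groups. Filled red points passed the threshold, and S100a9, too dim to test, is drawn open. Cd14 stands at 2.00 with caerulein in Mist1KO, and the called changes with caerulein in wild type, from Ngp, from Csf1r by 2 probe sets and from Lyz1, are all below 0.

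Itgb2 and Ptprc, which leukocytes of nearly every kind carry, gave no call with caerulein in either genotype. Itgb2 read 137.4, 149.2 and 188.1 in Mist1KO caerulein, 155.4, 170.2 and 198.8 in Mist1KO saline, 95.2, 114.2 and 106.9 in wild type caerulein and 73.8, 62 and 151.8 in wild type saline. Every Mist1KO saline array lay above every wild type saline array, if narrowly over wild type saline replicate 3. Itgb2 rose in Mist1KO relative to wild type after saline by 0.83 ± 0.24 (adjusted p = 0.0394), a call lost in 12 of 24 other settings. It ended without any single Mist1KO saline array, wild type saline replicate 1 or 2, or Mist1KO caerulein replicate 1 or 2 (adjusted p at most 0.206). After caerulein the difference was 0.50 ± 0.24 (adjusted p = 0.165), again with no overlap of arrays.

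Ptprc read 94.1, 107 and 106.7 in Mist1KO caerulein, 65.2, 109.9 and 84.7 in Mist1KO saline, 57.8, 58.1 and 68.1 in wild type caerulein and 144.2, 60.8 and 107.7 in wild type saline. The caerulein groups were tight and did not overlap, while both saline groups spread across them. None of its changes passed the threshold. The change was 0.22 ± 0.25 in Mist1KO (adjusted p = 0.571), -0.56 ± 0.25 in wild type (adjusted p = 0.139) and 0.60 ± 0.25 for Mist1KO caerulein against wild type caerulein (adjusted p = 0.109). Without replicate 2 of both saline groups, a setting chosen after the values were seen, the last of these had adjusted p = 0.0410. The wild type change was then -0.84 (adjusted p = 0.0180). Without Mist1KO caerulein replicate 3 as well, the difference between the caerulein groups was no longer called. The arrays left out stood apart in the marker genes themselves, so the p-values of these settings support no call. Of 14 other pan-leukocyte genes, none rose or fell with caerulein in either genotype. After saline 2 fell in Mist1KO relative to wild type, Rac2, a GTPase of blood cells (-0.93 ± 0.25, adjusted p = 0.0264), and Lcp2, an adaptor of antigen receptor signalling (-0.78 ± 0.20, adjusted p = 0.0194), both lost without wild type saline replicate 1 or Mist1KO saline replicate 1, and each also without a further replicate 2 (wild type saline for Rac2, Mist1KO saline for Lcp2; adjusted p at most 0.10 for either). After caerulein 1 rose in Mist1KO relative to wild type, Cd52, a surface glycoprotein of leukocytes (1.27 ± 0.40, adjusted p = 0.0393), and 1 fell, Cytip, a regulator of leukocyte adhesion (-0.72 ± 0.24, adjusted p = 0.0497). The call of Cd52 was lost in 9 of 23 other settings (at most 0.105) and that of Cytip in 17 of 24 (at most 0.163), in both cases on leaving out any array of either caerulein group. Summed over 20 genes, the pan-leukocyte signal ran from 1506 to 1829 in Mist1KO caerulein, from 1502 to 1980 in Mist1KO saline, from 1636 to 1919 in wild type caerulein and from 2027 to 2456 in wild type saline. Wild type saline was thus the highest group on all 3 arrays, and the other groups overlapped.

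Of 14 chemoattractants and growth factors, none rose with caerulein in either genotype and 2 fell in wild type, Ccl2, which draws monocytes (-0.63 ± 0.19, adjusted p = 0.0321), and Cxcl12 (-0.62 ± 0.20, adjusted p = 0.0458). The call of Ccl2 was lost in 9 of 24 other settings (at most 0.0930) and that of Cxcl12 in 16 (at most 0.159), single wild type arrays among them in both cases. Cxcl2, which draws neutrophils, read 87.1, 65.1 and 114.2 in Mist1KO caerulein, against 34.2, 29.4 and 37.8 in wild type caerulein. It rose by 1.01 ± 0.30 between these groups (adjusted p = 0.0289), a call that ended without any wild type caerulein array or without Mist1KO caerulein replicate 1 or 3 (at most 0.108). After saline Cxcl2 read 60.8, 40.7 and 31.4 in Mist1KO and 96.3, 36.6 and 51.2 in wild type, so wild type saline overlapped Mist1KO caerulein. Ccl4, another chemokine, fell in Mist1KO relative to wild type both after caerulein (-0.50 ± 0.16, adjusted p = 0.0423) and after saline (-0.59 ± 0.16, adjusted p = 0.0322). The first of these calls was lost in 15 of 24 other settings (at most 0.178) and the other in 11 (at most 0.132), single arrays of the compared groups among them. Of 16 adhesion and transmigration genes, 3 rose with caerulein in Mist1KO, and 2 rose and 2 fell in wild type. Those that rose in Mist1KO were Cd44, the hyaluronan receptor, F11r, a tight junction protein, and Itgb1, the beta-1 integrin, none of which is particular to leukocytes. Cd44 read 704.8, 738.9 and 565.1 in Mist1KO caerulein, 93.1, 186.8 and 112.8 in Mist1KO saline, 251.1, 254.1 and 240.9 in wild type caerulein and 167.7, 103 and 146.2 in wild type saline. It rose by 2.24 ± 0.22 in Mist1KO (adjusted p = 5.89e-06) and by 0.78 ± 0.22 in wild type (adjusted p = 0.0206), the second lost without replicate 2 of wild type saline, or 2 or 3 of wild type caerulein (at most 0.0814).

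Counted over the 8 tested genes, caerulein gave 1 rise and no fall in Mist1KO. Over all 9481 genes tested in that comparison, 10.2% rose and 14.0% fell, so 1 of 8 was near the background. The median change of the 8 was 0.23, against -0.14 over all genes, and 1 of them, Cd14, had 3 arrays above all 3 of saline, as did 15.5% of all genes. With caerulein in wild type, none of the 8 rose and 3 fell (Ngp, Csf1r and Lyz1), where 8.74% of all genes rose and 9.96% fell. Their median change was -0.62, against -0.16 over all genes. In 3 of the 8 (Ngp, S100a8 and Csf1r) every caerulein array lay below every saline array, as in 21.4% of all genes. Leaving out replicate 1 or 3 of wild type saline, or 2 or 3 of wild type caerulein, only 1 of the 8 fell, and Ngp was the gene whose call held in every setting.

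Between the genotypes after saline, 1 of the 8 rose in Mist1KO relative to wild type (Itgb2) and 2 fell (Ngp and Cd14), where 6.14% of all genes rose and 6.95% fell. The median was -0.46, against -0.09 over all genes. Arrays did not overlap for the same 3 genes, 1 higher and 2 lower, as for 14.4% and 19.7% of all genes. Without Mist1KO saline replicate 1 or 3 the count of calls was 1 in place of 3. After caerulein none of the 8 passed, where 9.03% of all genes rose and 11.6% fell. By brightest probe set all 8 changes were above 0, with a median of 0.55 against -0.09 over all genes. The share of all genes above 0 was not taken. Ngp (0.03) and Cd68 (0.07) were near 0 and changed sign in other settings. Dimmer probe sets lay below 0 for Csf1r (the _a_at, -0.32) and Lyz1 (the plain _at, -0.13), and the other dimmer ones above (0.95 and 0.63). In 4 genes (Cd14, Itgb2, Ptprc and Lyz1) every Mist1KO array lay above every wild type array, as in 15.5% of all genes. Without wild type saline replicate 2 the count of calls was 2, and without wild type saline replicate 3, wild type caerulein replicate 3 or Mist1KO saline replicate 2 it was 1. In the interaction 1 of the 8 passed (Cd14) with a larger change in Mist1KO, where 1.48% of all genes did and 1.87% passed with a smaller one, and 7 of the 8 values were above 0. The comparisons share groups, so the same low or high array enters more than 1 of them.

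**Figure D3:**
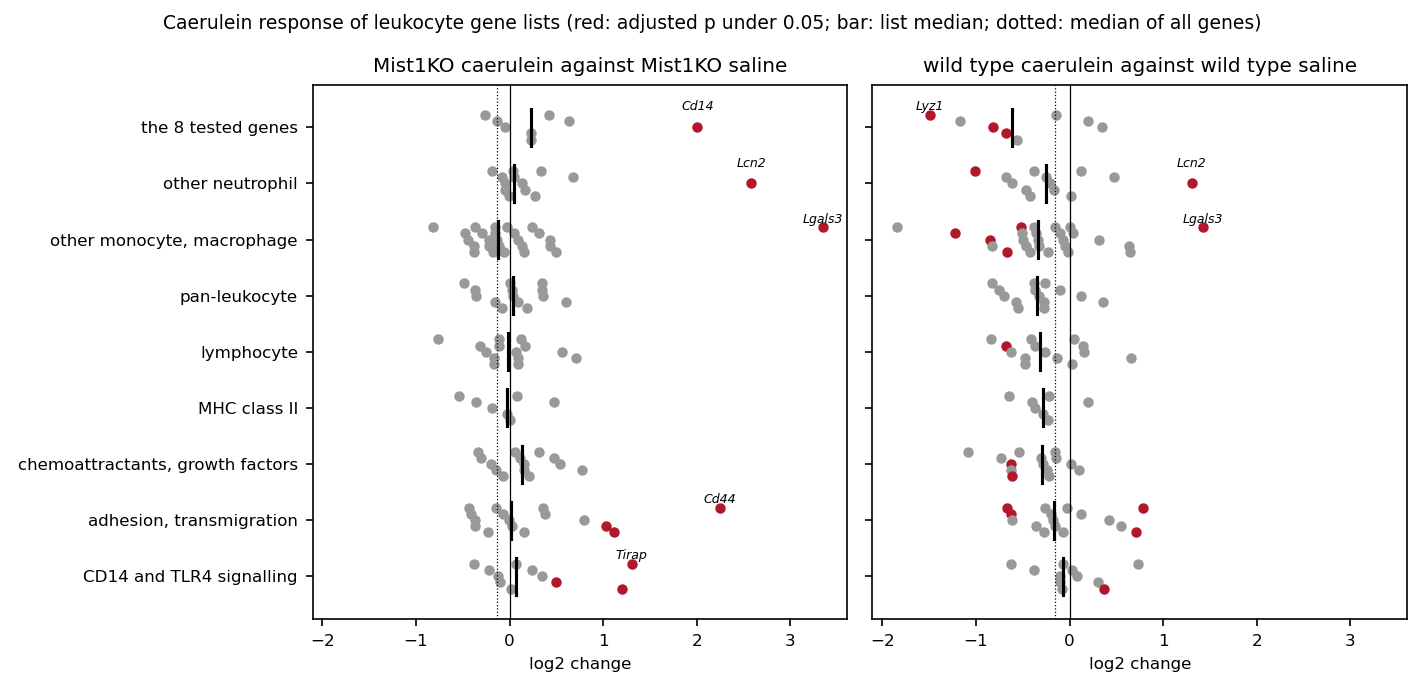
Change with caerulein on the log2(signal + 18.7) scale in Mist1KO (left) and in wild type (right) for the 8 tested marker genes and the tested genes of 8 other lists, 1 point per gene, red where it passed the threshold. The bar is the median of the list, and the dotted line is the median of all genes tested. The marker genes have medians of 0.23 in Mist1KO and -0.62 in wild type.

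Markers of other cell types moved between the same groups. Of 14 acinar genes 12 fell with caerulein in Mist1KO and 3 in wild type, and their summed signal ran from 90622 to 137884 in Mist1KO caerulein, from 154693 to 181266 in Mist1KO saline, from 174946 to 243462 in wild type caerulein and from 217687 to 271959 in wild type saline. Of 11 fibroblast genes 3 fell with caerulein in Mist1KO and 4 in wild type, with a median of -0.66 in wild type, close to the -0.62 of the marker genes there. The fibroblast sums ran from 2990 to 3993 in Mist1KO caerulein, from 4350 to 6320 in Mist1KO saline, from 2419 to 3755 in wild type caerulein and from 3395 to 6889 in wild type saline. Of 14 lymphocyte genes 1 fell with caerulein in wild type and none changed in Mist1KO, none of 7 MHC class II genes changed in any comparison, and of 6 mast cell genes 1 fell in wild type. After saline 1 lymphocyte gene rose in Mist1KO relative to wild type, Cd3e, a chain of the T cell receptor complex (2.07 ± 0.43, adjusted p = 0.00822). Another 3 fell, the co-receptor genes Cd4 (-1.10 ± 0.32, adjusted p = 0.0390) and Cd8b1 (-1.04 ± 0.28, adjusted p = 0.0259) and the T cell kinase gene Zap70 (-0.51 ± 0.16, adjusted p = 0.0486). The calls were lost in 2 of 24 other settings for Cd3e (both without replicate 2 of both saline groups, at most 0.0958), 11 of 23 for Cd4 (at most 0.118), 6 of 23 for Cd8b1 (at most 0.138) and 16 of 24 for Zap70 (at most 0.178), for the last 3 also on leaving out single saline arrays. After caerulein 1 lymphocyte gene fell in Mist1KO relative to wild type, again Zap70 (-0.50 ± 0.16, adjusted p = 0.0365, lost in 6 of 24 settings, at most 0.147). The mast cell gene was the chymase Cma1 (-1.43 ± 0.29, adjusted p = 0.00368). Of 3 red blood cell genes none changed, and their list summed to 133 to 402 in Mist1KO caerulein, 131 to 350 in Mist1KO saline, 144 to 270 in wild type caerulein and 267 to 619 in wild type saline. Of 10 endothelial genes 1 fell with caerulein in each genotype, and of 5 duct genes 1 rose and 1 fell in each. The part of these cells in the marker genes' changes was not tested.

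Of 7 plasma cell genes, 3 rose and none fell with caerulein in Mist1KO, and 1 rose and 4 fell in wild type. Jchain, the joining chain of secreted antibodies, read 446.6, 607.6 and 1150.2 in Mist1KO caerulein, 202.1, 422.5 and 192.2 in Mist1KO saline, 91, 52.2 and 110.5 in wild type caerulein and 913.7, 247.3 and 873.5 in wild type saline. Wild type caerulein was the lowest group on every array, and wild type saline replicate 2 was low and Mist1KO saline replicate 2 high within their groups, as they were for most of the marker genes. Jchain fell with caerulein in wild type by 2.59 (SE 0.46, adjusted p = 0.00131) and was higher in Mist1KO caerulein than in wild type caerulein by 2.80 ± 0.46 (adjusted p = 0.000827). The immunoglobulin heavy chain gene Ighm fell by 2.23 in wild type (SE 0.53, adjusted p = 0.00950). Sdc1, a proteoglycan of plasma cells that epithelial cells carry too, rose in both genotypes. The part of plasma cells in the marker genes' changes was not tested.

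Within groups the marker genes tended to be high or low on the same arrays. After each group's mean was subtracted, 34 of the 36 pairs of the 9 genes correlated above 0 over the 12 arrays, with a median Pearson r of 0.55 and a range from -0.09 to 0.90. Over all pairs of tested genes 50.9% were above 0, with a median of 0.01. The pairs with the highest r were S100a9 with Lyz1 (0.90), S100a9 with Csf1r (0.89) and Ptprc with Lyz1 (0.83), and S100a8 with S100a9 stood at 0.75. S100a9 was too dim to test, with signals down to 1.5, whereas the pairs over all genes hold tested genes only. The points share the array, its labelling and its scaling, and these values are a description only. Summed over the 9 genes, the signal ran from 1399 to 1726 in Mist1KO caerulein, from 952 to 1728 in Mist1KO saline, from 905 to 1127 in wild type caerulein and from 1168 to 2097 in wild type saline. Wild type caerulein was the lowest group and overlapped only Mist1KO saline. Without Cd14 the sums ran from 1078 to 1403 in Mist1KO caerulein, from 889 to 1629 in Mist1KO saline, from 780 to 896 in wild type caerulein and from 1027 to 1933 in wild type saline, with wild type caerulein again overlapping only Mist1KO saline.

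**Figure D4:**
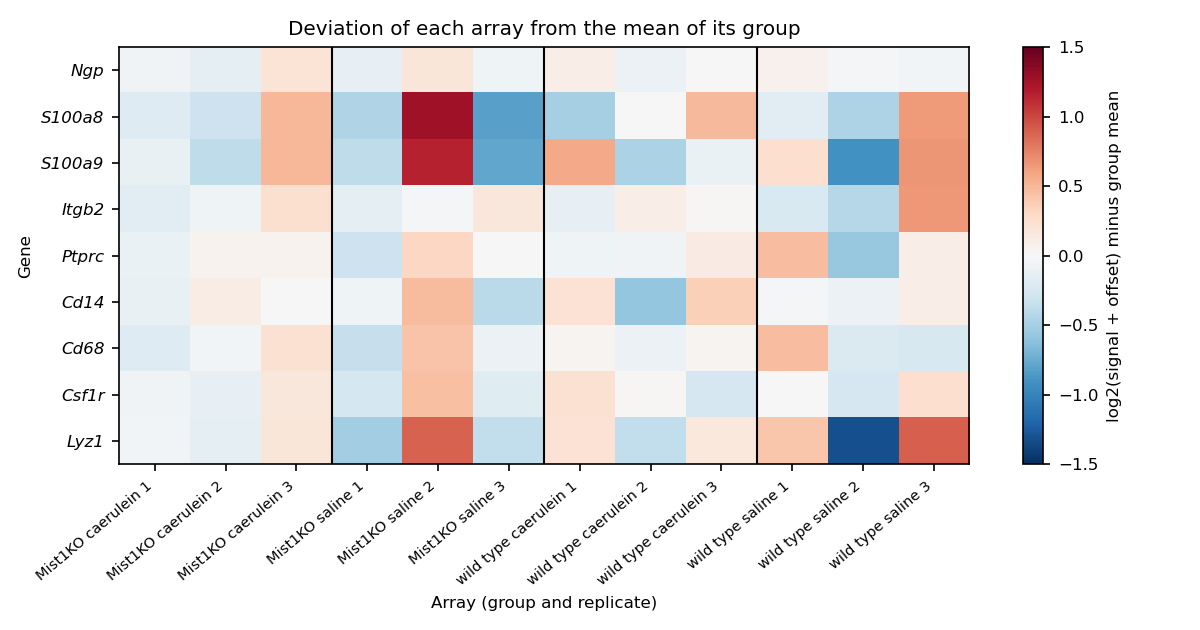
Deviation of each array from the mean of its group on the log2(signal + 18.7) scale, for the 9 marker genes (rows, brightest probe set) on the 12 arrays (columns, by group and replicate). Red is above and blue below the group mean; Mist1KO saline replicate 2 is highest of its group in 8 of 9 genes and wild type saline replicate 2 lowest in 7 of 9.

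The genes whose signal followed each marker most closely over all 12 arrays, the 2 with the highest Pearson r among the tested genes, differed from marker to marker. Cd14 was followed by Rap1gds1 (0.93) and Limd2 (0.92), and Ngp by the lysosomal protease Ctsd (0.94) and by Mmp16 (0.94). S100a8 was followed by Tmem199 (0.88) and the MHC class II gene H2-Ab1 (0.86), and S100a9 by Plac8 (0.86) and Nat2 (0.86). Lyz1 was followed by Fn1, which encodes fibronectin (0.95), and by H2-Ab1 (0.92). Ptprc also had Fn1 as its closest gene (0.92), then Saa3, an acute phase protein (0.90). Csf1r was followed by Aplnr, the apelin receptor (0.92), and Tmem30a (0.92), Cd68 by Nol3 (0.92) and the formyl peptide receptor gene Fpr2 (0.89), and Itgb2 by Prpf39 (0.91) and Tsg101 (0.91). These correlations mix differences between groups with differences within them and carry no test.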

How the data were processed

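RNA from 12 whole mouse pancreata, 1 array each, was measured on an Affymetrix array of 22516 probe sets. The authors deposited 1 signal intensity per probe set and array on a linear scale. The 2% trimmed means were 151.08 to 151.37 on every array, so the arrays had been scaled to 1 level. The software that made these values was not given in the sources used here. The series calls the pancreata biological replicates, and no 2 arrays held identical values. The labels give the replicate numbers no shared litter or day.

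From the intensities, log2(signal + 18.7) was computed, the offset being the 20th percentile of all signals. The 64 control probe sets were removed, as were probe sets with a mean at or below the 30th percentile (a mean signal of about 35.4), which left 15716. One model of the 4 groups was fitted with limma 3.58.1 in R 4.3.3, with an intensity trend, 8 residual and 5.75 prior degrees of freedom. Benjamini-Hochberg adjustment ran over all probe sets, and 0.05 was the threshold. In simulated data for Mist1KO caerulein against Mist1KO saline (15716 probe sets), 2 of 50 changes of log2 0.5 were recovered. For log2 1 it was 24 of 50 and for log2 2 it was 47 of 50, with 5 false calls. Only 200 probe sets were changed there, with noise drawn separately for each. In the data 10.2% of genes rose and 14.0% fell in that comparison, and genes varied together by array, so these figures do not carry over.

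Genes were named from the platform annotation, which gave 20240 probe sets 1 symbol, 682 several and 1530 none. The 9 marker genes, the 17 companion lists (259 symbols, 228 matched, 181 tested) and the rule for naming genes were chosen with earlier results of these data known. From each list at most the 4 genes with the largest change among those past the threshold in a comparison were named, with the brightest genes where fewer passed, and for each marker the 2 genes with the highest Pearson correlation. Tlr4 and Lyz2 were added for their roles after their values were seen. The number of arrays limits the precision. Other offsets, filters, scalings, a replicate block, array weights and leaving out each array were tried. Same-numbered arrays did not deviate together: the 18 correlations ran from -0.10 to 0.05.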

Additional observations from a re-analysis of the deposited data

Results flagged for a closer look

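The change with caerulein differed between the genotypes, by limma's interaction test, for 1 marker gene and 6 companion genes. Each value is the change in Mist1KO minus that in wild type on the log2(signal + 18.7) scale. Cd14 stood at 1.66 ± 0.35 (adjusted p = 0.0206), a call that ended without Mist1KO saline replicate 1 or 3, or Mist1KO caerulein replicate 2. Of the plasma cell genes, Iglv1 stood at 5.05 ± 0.82 (adjusted p = 0.00495), Jchain at 3.94 ± 0.65 (adjusted p = 0.00570), Ighm at 3.52 ± 0.75 (adjusted p = 0.0209) and Sdc1 at 1.21 ± 0.25 (adjusted p = 0.0205). The calls of Iglv1 and Jchain held in every setting tried, that of Ighm ended without Mist1KO saline replicate 1 or 3, and that of Sdc1 ended without Mist1KO saline replicate 2 or 3 or Mist1KO caerulein replicate 1. Iglv1 read 154.3, 131.3 and 271.5 in Mist1KO caerulein, against 7.5, 67.5 and 13.2 in Mist1KO saline. It read 12.9, 5.1 and 22.4 in wild type caerulein, against 551.8, 67.2 and 201.8 in wild type saline. Its size thus rests in part on signals below the 18.7 offset. The hyaluronan receptor gene Cd44 stood at 1.46 ± 0.30 (adjusted p = 0.0195), a call lost without Mist1KO saline replicate 3 or Mist1KO caerulein replicate 1 or 2. S100a16, lowest in Mist1KO saline and similar in the other groups, stood at 0.83 ± 0.21 (adjusted p = 0.0490), a call lost in 17 of 23 other settings.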

How the results depend on the processing

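Of 1423 values of the marker genes under 25 other settings, 1320 kept their direction and side of the threshold, 46 lost a call, 35 gained one and 22 changed sign, none of these a called change. Leaving out 1 array each, the number of the 8 genes called ran from 1 to 1 with caerulein in Mist1KO, 1 to 4 with caerulein in wild type, 1 to 3 after saline, 0 to 2 after caerulein between genotypes and 0 to 2 in the interaction. With caerulein in wild type 1 was called with median-centred arrays or without the intensity trend. Between genotypes after caerulein 1 was called with median-centred arrays or array weights and 2 with only the groups compared, and in the interaction 2 were called with quantile normalization or array weights. In 2 settings chosen after seeing the data, without replicate 2 of both saline groups and then also without Mist1KO caerulein replicate 3, the counts were 3 and 2 with caerulein in Mist1KO, 5 and 5 in wild type, 2 and 1 between genotypes after caerulein, and 3 and 2 in the interaction. The arrays left out there stood apart in these same genes, so these counts support no call. With the replicate number as a block the counts stayed at 1, 3, 3, 0 and 1, and no call of a marker gene changed. Beyond the array numbers, no pairing is given, and the block is reported only here.

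Sign changes of uncalled values near 0 were these. With caerulein in Mist1KO, Ngp stood at 0.033 with quantile normalization, 0.075 with median-centred arrays and 0.042 without both saline replicates 2 (-0.15 to 0.042 leaving out 1 array). The _a_at probe set of Csf1r stood at 0.055 when median-centred (-0.16 to 0.0030) and its _s_at probe set ran from -0.0085 to 0.34. The dimmer _x_at probe set of Lyz1 ran from -0.048 to 0.64, its plain _at probe set from -0.12 to 0.35 and Lyz2 from -0.018 to 0.22. With caerulein in wild type, Itgb2 stood at -0.020 in both added settings (-0.020 to 0.52) and Cd68 ran from -0.27 to 0.081. After saline Ptprc ran from -0.47 to 0.049. After caerulein Ngp stood at -0.074 without Mist1KO caerulein replicate 3 and both saline replicates 2 (-0.074 to 0.10), Cd68 at -0.0063 with array weights and -0.050 in that added setting (-0.050 to 0.16), and the plain _at probe set of Lyz1 ran from -0.36 to 0.038. The causes were not tested.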
